A study of Homo sapiens with 16 samples.

Results

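DNMT1 and DNMT3B are the genes whose disruption defines DKO, and the signal of 7 chromatin immunoprecipitation sequencing (ChIP-seq) targets along them was compared between DKO and its parent HCT116. HCT116 is a colorectal carcinoma cell line. DKO is a clonal derivative made by homologous recombination in both genes, as the line is generally known. The labels name the lines and state that both grew in McCoy's 5A medium with serum. A region was taken when it overlapped DNMT3B (chr20:31350191-31397162, plus strand) or DNMT1 (chr19:10244022-10305755, minus strand) with 10 kb added on each side, in build hg19. This gave 329 of 1255311 regions, 118 at DNMT3B and 211 at DNMT1. The DNMT3B regions comprised 7 of CTCF, 10 of RAD21, 9 of SMC1, 13 of H3K27Ac, 19 of Pol2Ser5, 41 of Pol2Ser2 and 19 of TotalRNAPol2. The DNMT1 regions comprised 5 of CTCF, 11 of RAD21, 11 of SMC1, 25 of H3K27Ac, 42 of Pol2Ser5, 65 of Pol2Ser2 and 52 of TotalRNAPol2.

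DNMT1 is the maintenance methyltransferase, which copies CpG methylation onto newly made DNA after replication. DNMT3B is a de novo methyltransferase, which adds methylation to unmethylated CpG sites and also acts within transcribed gene bodies. DKO has lost most of its DNA methylation and is known to keep a low amount of truncated DNMT1 protein. CTCF is the insulator protein whose binding at some sites is blocked by CpG methylation, and RAD21 and SMC1 are subunits of cohesin, the ring complex that CTCF holds in place. H3K27Ac marks active promoters and enhancers. Pol2Ser5 is RNA polymerase II in the form found near promoters and Pol2Ser2 is the elongating form. For TotalRNAPol2 the title names total polymerase and the antibody label names Pol2Ser5, and the title was followed.

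The promoters held in RefSeq for both genes are shown because both enzymes methylate CpG sites. Each is 300 bases, from 250 before to 50 after the RefSeq start, in build GRCh38.p14, written 5' to 3' on the strand of the gene with every CpG in capitals. That build differs from the build of the tables, and no coordinate was carried from one to the other. The DNMT3B promoter is chr20:32779602-32779901, plus strand, and the DNMT1 promoter is chr19:10194904-10195203, minus strand.
DNMT3B: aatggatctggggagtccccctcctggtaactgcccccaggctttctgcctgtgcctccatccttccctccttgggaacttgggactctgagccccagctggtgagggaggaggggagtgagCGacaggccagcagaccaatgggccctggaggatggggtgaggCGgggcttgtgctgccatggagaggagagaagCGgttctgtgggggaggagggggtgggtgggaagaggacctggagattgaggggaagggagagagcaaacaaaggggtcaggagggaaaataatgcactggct
DNMT1: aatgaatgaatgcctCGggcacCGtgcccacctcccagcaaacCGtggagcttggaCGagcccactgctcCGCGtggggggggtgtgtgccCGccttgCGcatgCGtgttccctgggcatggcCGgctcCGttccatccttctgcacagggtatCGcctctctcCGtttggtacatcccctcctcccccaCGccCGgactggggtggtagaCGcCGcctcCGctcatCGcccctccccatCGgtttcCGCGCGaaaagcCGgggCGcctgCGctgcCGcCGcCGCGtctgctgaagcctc
The DNMT3B promoter held 3 CpG and 61.7% G and C, and 81.8% of the 35116 RefSeq promoters held as many CpG or more. The DNMT1 promoter held 30 CpG and 68.3% G and C, and 22.4% of promoters held as many or more. The median promoter held 14 CpG. The RefSeq start of DNMT3B lies 17467 bases downstream of the first base of its gene in GRCh38.p14, so that the window shown is an internal start and not the one at the 5' end of the gene. The RefSeq start of DNMT1 lies at the first base of its gene, so the CpG counts compare unlike places. The CpG count at the 5' end of DNMT3B is not given here. Of 4 motifs searched on both strands, GGGCGG was in 45.0% of all promoters, CCAAT in 34.6%, TATAAA in 11.5% and TTTCCCGC in 1.63%. One match was found, a CCAAT in the DNMT3B window, and this count of 1 describes letters and not a bound site.

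Each target had 1 library per line, so differences between DKO and HCT116 stand without replicates and were not tested. Values are normalized read densities, in reads per kb of a counting window after the authors' scaling, with whole read numbers recovered from them. M is the log2 of the DKO density over the HCT116 density, so a positive M means more in DKO. The 95% intervals of M are exact binomial (Clopper-Pearson) intervals and cover counting error only. Median reads per window over whole tables ranged from 24 in DKO Pol2Ser2 to 78 in DKO H3K27Ac, and from 23 in HCT116 Pol2Ser5 to 94 in HCT116 H3K27Ac. A region was called higher or lower when M was at least 1 or at most -1, a 2-fold difference.

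DKO had no reads in any region of a continuous part of the DNMT3B gene body, in which HCT116 carried a CTCF and cohesin site and polymerase. Of the 118 DNMT3B regions, 34 had 0 DKO reads, all of them called as peaks in HCT116 alone. They lay in chr20:31368726-31392574, which is 23849 bp or 50.8% of the gene, from 18.5 to 42.4 kb downstream of the gene start. No region of any table inside these limits had a DKO read. The 34 comprised 3 of 7 CTCF regions, 3 of 10 RAD21, 1 of 9 SMC1, 7 of 19 Pol2Ser5, 16 of 41 Pol2Ser2 and 4 of 19 TotalRNAPol2 regions. Reads of DKO were likewise absent from 0.0227% of CTCF regions, 0.00778% of RAD21, 0.00126% of SMC1, 0.27% of Pol2Ser5, 0.5% of Pol2Ser2 and 0.0074% of TotalRNAPol2 regions over the whole tables. No region of either gene had 0 HCT116 reads. H3K27Ac had no region of either line within the interval, and 0 of its 13 DNMT3B regions lacked DKO reads, against 0.0133% of its table. Apart from 1 Pol2Ser2 region of DNMT1, with 0 DKO and 31 HCT116 reads, peaks called in 1 line alone did not otherwise lack reads of the other line. The 18 DNMT3B regions outside the interval called in HCT116 alone all had DKO reads, and the 150 DNMT1 regions called in DKO alone all had HCT116 reads. Whether the DNA itself is missing from DKO was not tested, and the input libraries were not analysed here.

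**Figure D1:**
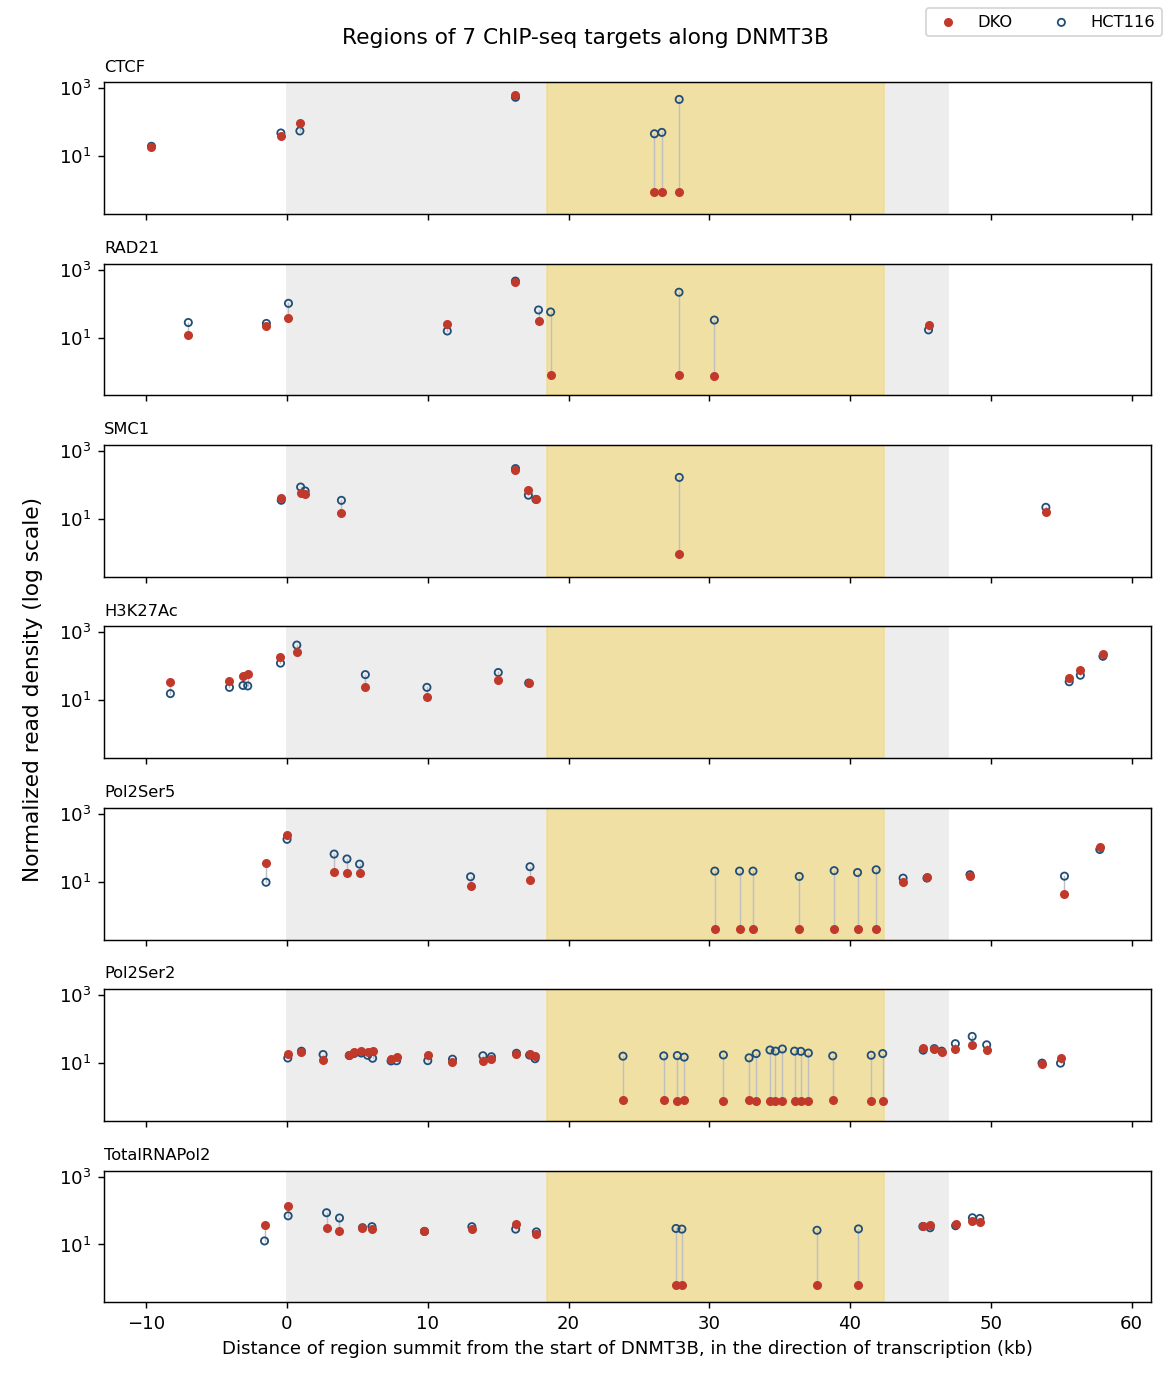
Normalized read density (log scale) of each DNMT3B region against the distance of its summit from the gene start in kb, with filled red points for DKO, open blue points for HCT116 and a grey line joining both values of a region. Grey shading is the gene and yellow shading is the interval of 34 regions, where all DKO points sit at the density of 0 reads after the authors' offset of 1 read.

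The edges of the interval were set by the nearest regions with DKO reads. On the 5' side this was a RAD21 region at chr20:31367664-31368200 with 35 DKO and 56 HCT116 reads, 526 bp from the interval. On the 3' side it was a Pol2Ser5 region at chr20:31393814-31394009 with 24 DKO and 19 HCT116 reads, 1240 bp away. The counting windows of the 34 regions, 2 kb wide for polymerase and 1 kb for the 3 other targets, spanned 25090 bp from 31368421 to 31393511. They covered 20543 bp, or 81.9% of that span, and the longest stretch between them was 3641 bp. The last window with DKO reads on the 5' side, of TotalRNAPol2, had 42 DKO and 45 HCT116 reads and ended at 31368908. The first on the 3' side belonged to the Pol2Ser5 region named above and began at 31392958. Windows of different tables thus overlapped at both edges, which limits how finely either edge is placed.

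The strongest of these regions in HCT116 was an intragenic CTCF site at chr20:31377206-31379363, 27.9 kb from the gene start. CTCF there had 0 DKO and 431 HCT116 reads, with an upper bound of M of -7.11. RAD21 at the same place (chr20:31377510-31378789) had 0 DKO and 174 HCT116 reads, with an upper bound of M of -6.17. SMC1 (chr20:31377552-31378460) had 0 DKO and 151 HCT116 reads, with an upper bound of M of -5.62. CTCF and both cohesin subunits thus shared a position in HCT116 and had no read there in DKO. Of the other CTCF regions, chr20:31376223-31376422 had 0 DKO and 39 HCT116 reads and chr20:31376748-31376955 had 0 DKO and 43 HCT116 reads. RAD21 also had regions at chr20:31368726-31369063, with 0 DKO and 43 HCT116 reads, and at chr20:31380415-31380654, with 0 DKO and 24 HCT116 reads.

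Polymerase regions lay along most of the interval in HCT116. The 16 Pol2Ser2 regions had 0 DKO reads each, and in HCT116 a lowest count of 45, a median of 56.5 and a highest of 79. The 4 TotalRNAPol2 regions had 0 DKO reads and 66, 71, 72 and 74 HCT116 reads. The 7 Pol2Ser5 regions had 0 DKO reads and 22 to 35 HCT116 reads. Upper bounds of M were -2.18 or lower for Pol2Ser2, -3.41 or lower for TotalRNAPol2 and -3.09 or lower for Pol2Ser5. The fitted M ran from -5.09 to -4.16 for Pol2Ser2, from -5.55 to -5.36 for TotalRNAPol2 and from -5.81 to -5.16 for Pol2Ser5, and depends on the authors' offset of 1 read and on their scaling line. With constant centring, in which 1 constant replaces that line, M ran from -5.96 to -5.16 for Pol2Ser2, from -6.82 to -6.66 for TotalRNAPol2 and from -5.97 to -5.33 for Pol2Ser5, so the order of the targets changed with the scaling.

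Neighbouring windows share reads, so the reads were also summed over windows that do not overlap. CTCF had 0 DKO reads and 470 HCT116 reads in 2 windows, where equal normalized densities would have given 436 DKO reads. RAD21 had 0 DKO and 241 HCT116 reads in 3 windows, with 281 expected in DKO. SMC1 had 0 DKO and 151 HCT116 reads in 1 window, with 192 expected in DKO. The polymerase sums were 0 DKO and 154 HCT116 reads in 5 windows of Pol2Ser5, 0 DKO and 387 HCT116 reads in 7 windows of Pol2Ser2, and 0 DKO and 212 HCT116 reads in 3 windows of TotalRNAPol2. The DKO reads expected there were 261, 288 and 268. Each of the 6 tables thus had 0 DKO reads where more than 100 would stand at equal density.

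Few regions this deep lacked DKO reads in the whole tables. Among CTCF regions with at least 39 HCT116 reads, the fewest of the 3 in the interval, 9 of 80617 had 0 DKO reads, the 3 of the interval among them. Counted likewise with the regions of the interval, there were 8 of 116849 for RAD21 from 24 reads (3 of the interval), 25 of 81564 for Pol2Ser5 from 22 reads (7 of the interval) and 98 of 75075 for Pol2Ser2 from 45 reads (16 of the interval). For SMC1 from 151 reads the only such region of 4766 was the one in DNMT3B, and for TotalRNAPol2 from 66 reads all 4 of 48548 were in DNMT3B. When the regions of all tables were put in genome order, those with 0 DKO reads formed 1532 runs, of which 1468 were single regions and 64 held 2 or more. The DNMT3B run had the most regions (34), the most tables (6) and the most summed HCT116 reads (2344, over windows that partly overlap). The next by regions held 13 of 4 tables spread over 4339.1 kb. The next by reads summed to 657, with 9 regions of 4 tables within 65.6 kb.

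**Figure D2:**
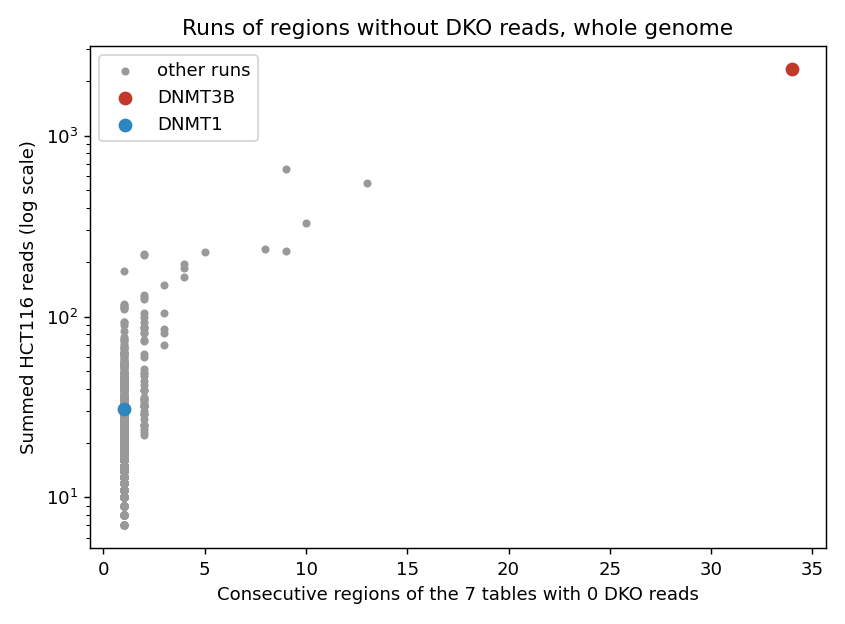
Each point is a run of consecutive regions of the 7 tables with 0 DKO reads, placed by its number of regions and by the sum of its HCT116 reads (log scale). The DNMT3B run (red) stands at 34 regions and 2344 reads, and the single DNMT1 region (blue) stands at 31 reads among the other runs (grey).

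A second strong CTCF site of DNMT3B, on the 5' side of the interval, kept its signal in DKO. It lay at chr20:31364909-31368109, 16.2 kb from the gene start, and CTCF had 590 DKO and 578 HCT116 reads. The densities were 629 in DKO and 544 in HCT116, an M of 0.21 (0.04 to 0.38). RAD21 there (chr20:31364704-31367579) had 423 DKO and 465 HCT116 reads, with M -0.11 (-0.30 to 0.08). SMC1 (chr20:31365626-31367081) had 312 DKO and 268 HCT116 reads, with M -0.14 (-0.38 to 0.10). This was the region of highest density at DNMT3B for all 3 proteins in DKO and in HCT116. H3K27Ac beside it (chr20:31364670-31365845) had 73 DKO and 142 HCT116 reads (M -0.73, -1.16 to -0.32), and Pol2Ser5 (chr20:31367340-31367599) had 28 in DKO and 42 in HCT116 (M -1.30, -2.06 to -0.59). Weaker cohesin regions over the 3' part of the same CTCF region differed in direction. RAD21 at chr20:31367664-31368200 had 35 DKO and 56 HCT116 reads (M -1.06). SMC1 at chr20:31367182-31367569 had 81 DKO and 44 HCT116 reads (M 0.55), and at chr20:31367715-31367981 its M was 0.03.

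**Figure D3:**
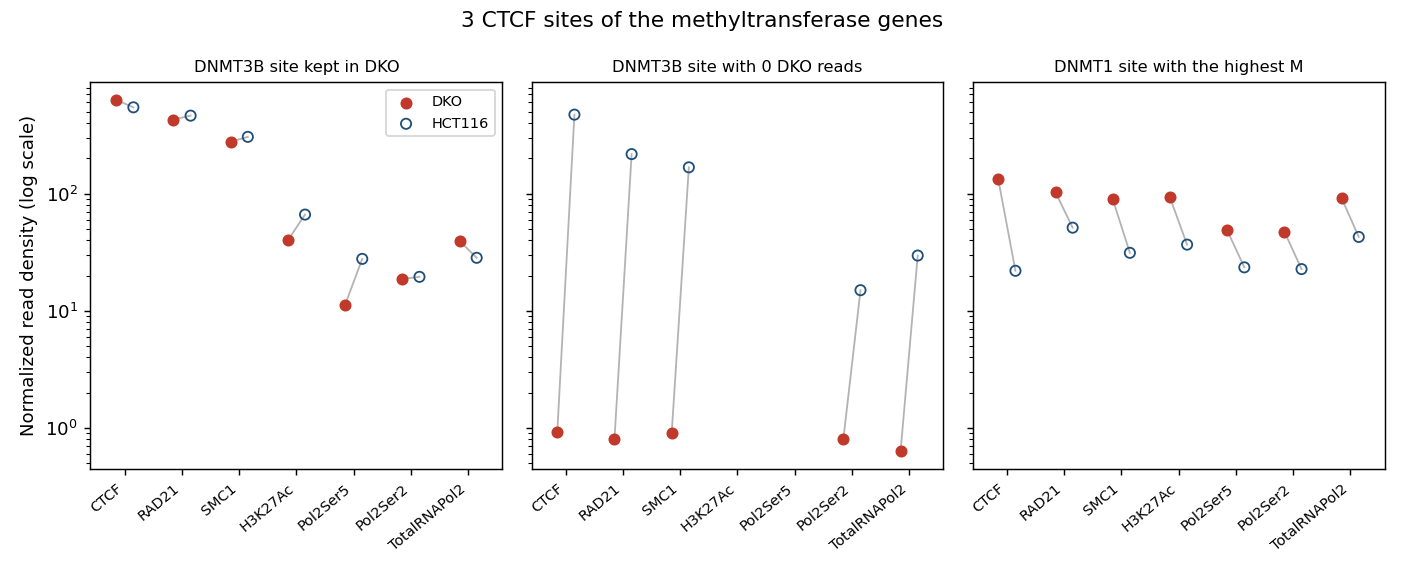
Normalized read density (log scale) of each target in DKO (filled red) and HCT116 (open blue) at the kept DNMT3B site, the DNMT3B site without DKO reads and the DNMT1 site of highest M, with lines joining both values of a region. CTCF stands at 629 in DKO and 544 in HCT116 in the left panel, at the offset of 0 reads in DKO and 471 in HCT116 in the middle, and at 132 in DKO and 22.0 in HCT116 on the right, and targets with no region at a site have no points.

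At the annotated start of DNMT3B the targets differed in direction. Pol2Ser5 (chr20:31348998-31352342) had 640 DKO and 262 HCT116 reads, with densities of 238 in DKO and 177 in HCT116 and an M of 0.43 (0.22 to 0.64). TotalRNAPol2 (chr20:31349335-31352232) had 359 DKO and 107 HCT116 reads, with an M of 1.00 (0.69 to 1.33) that was just short of the 2-fold limit before rounding, and of 1.14 with constant centring. CTCF (chr20:31350134-31351526) had 99 DKO and 53 HCT116 reads, with an M of 0.80 (0.32 to 1.32). RAD21 (chr20:31349541-31351613) was lower, with 41 DKO and 90 HCT116 reads and an M of -1.45 (-2.04 to -0.92). SMC1 (chr20:31350598-31351306) had 66 DKO and 77 HCT116 reads, with an M of -0.54 (-1.04 to -0.05). Just upstream, CTCF at chr20:31349593-31349974 had M -0.25 (-0.89 to 0.39) and SMC1 at chr20:31349696-31349896 had M 0.25 (-0.43 to 0.97). The RAD21 region spanned both CTCF regions, so opposite signs of CTCF and cohesin did not hold in one direction across the start. H3K27Ac over the first part of the gene (chr20:31350152-31354640) had 510 DKO and 867 HCT116 reads (M -0.70, -0.86 to -0.54). H3K27Ac just upstream (chr20:31348065-31350010) had 351 in DKO and 260 in HCT116 (M 0.56, 0.33 to 0.80). Pol2Ser2 at the start (chr20:31350109-31350409) had 29 DKO and 34 HCT116 reads, too few to place M on either side of 0 (0.40, -0.38 to 1.15).

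The 4 DNMT3B regions at least 2-fold higher in DKO all lay upstream of the gene. They were Pol2Ser5 at chr20:31348320-31348907, with 89 DKO and 14 HCT116 reads (M 1.85, 1.11 to 2.86), and TotalRNAPol2 at chr20:31348333-31348799, with 75 DKO and 24 HCT116 reads (M 1.55, 0.91 to 2.32). The others were H3K27Ac at chr20:31347332-31347525, with 106 DKO and 57 HCT116 reads (M 1.13), and at chr20:31341822-31341982, with 63 DKO and 34 HCT116 reads (M 1.16). Per table these were 1 of 19 Pol2Ser5 regions, 1 of 19 TotalRNAPol2 and 2 of 13 H3K27Ac, against 14.9%, 20.7% and 11.0% of all regions of those tables. None of the CTCF, RAD21, SMC1 and Pol2Ser2 regions of DNMT3B passed, where 20.1%, 13.7%, 9.36% and 18.6% of those tables did.

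Of the 84 DNMT3B regions outside the interval, 11 were at least 2-fold lower in DKO, 10 on its 5' side and 1 on its 3' side, and most of the 10 lay within the first 6 kb of the gene. Pol2Ser5 at chr20:31352455-31353872 had 50 DKO and 99 HCT116 reads (M -1.74, -2.28 to -1.25), and TotalRNAPol2 at chr20:31352475-31353533 had 68 in DKO and 147 in HCT116 (M -1.54, -1.98 to -1.12). H3K27Ac at chr20:31354724-31355981 had 44 in DKO and 124 in HCT116 (M -1.22, -1.78 to -0.74). Pol2Ser5 and TotalRNAPol2 were thus higher in DKO over and before the start and lower a few kb into the gene. The interval included, 3 of 7 CTCF regions, 6 of 10 RAD21, 2 of 9 SMC1, 1 of 13 H3K27Ac, 11 of 19 Pol2Ser5, 16 of 41 Pol2Ser2 and 6 of 19 TotalRNAPol2 regions were at least 2-fold lower. Over whole tables the shares were 6.33%, 8.7%, 4.67%, 10.4%, 21.0%, 10.9% and 10.2%. Without the interval the counts became 0 of 4 CTCF, 3 of 7 RAD21, 1 of 8 SMC1, 4 of 12 Pol2Ser5, 0 of 25 Pol2Ser2 and 2 of 15 TotalRNAPol2 regions, with H3K27Ac as before.

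Reads of Pol2Ser2 were present in DKO on both sides of the interval, and their enrichment over input was not examined. Over the 17 Pol2Ser2 regions on its 5' side the median density was 17.8 in DKO and 16.5 in HCT116, with a median M of 0.16 and a range from -0.53 to 0.66. Over the 8 regions on its 3' side the median density was 24.9 in DKO and 25.4 in HCT116, with a median M of -0.07 and a range from -0.81 to 0.52. The median HCT116 density inside the interval was 18.2. The highest Pol2Ser2 density at DNMT3B in either line was just past the gene end, at chr20:31397955-31399541, with 66 DKO and 126 HCT116 reads (M -0.81, -1.27 to -0.38). TotalRNAPol2 on the 3' side had 5 regions with M from -0.35 to 0.24. Farther downstream, towards MAPRE1, the next protein-coding gene in RefSeq GRCh38.p14, H3K27Ac at chr20:31406754-31409851 had 449 DKO and 410 HCT116 reads (M 0.23, 0.03 to 0.43).

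Outside the interval the median M was 0.05 over 4 CTCF regions, -0.21 over 7 RAD21 regions, -0.24 over 8 SMC1 regions, 0.35 over 13 H3K27Ac regions, -0.61 over 12 Pol2Ser5 regions, 0.09 over 25 Pol2Ser2 regions and -0.01 over 15 TotalRNAPol2 regions. All regions of chromosome 20 had medians of 0.50, 0.27, 0.33, 0.11, 0.15, 0.30 and 0.43 in the same order. With the flanks included, DNMT3B was below its chromosome in 6 targets and above it in H3K27Ac. Over the gene body alone the H3K27Ac median turned to -0.73, with all 5 regions there below 0, and the CTCF median was 0.51. The sign for Pol2Ser2 turned with the scaling, to -0.13 with constant centring on the regions called in both lines, and the TotalRNAPol2 median then was -0.47. With the chromosome median removed, the CTCF median was -0.45 and the Pol2Ser2 median -0.21.

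**Figure D4:**
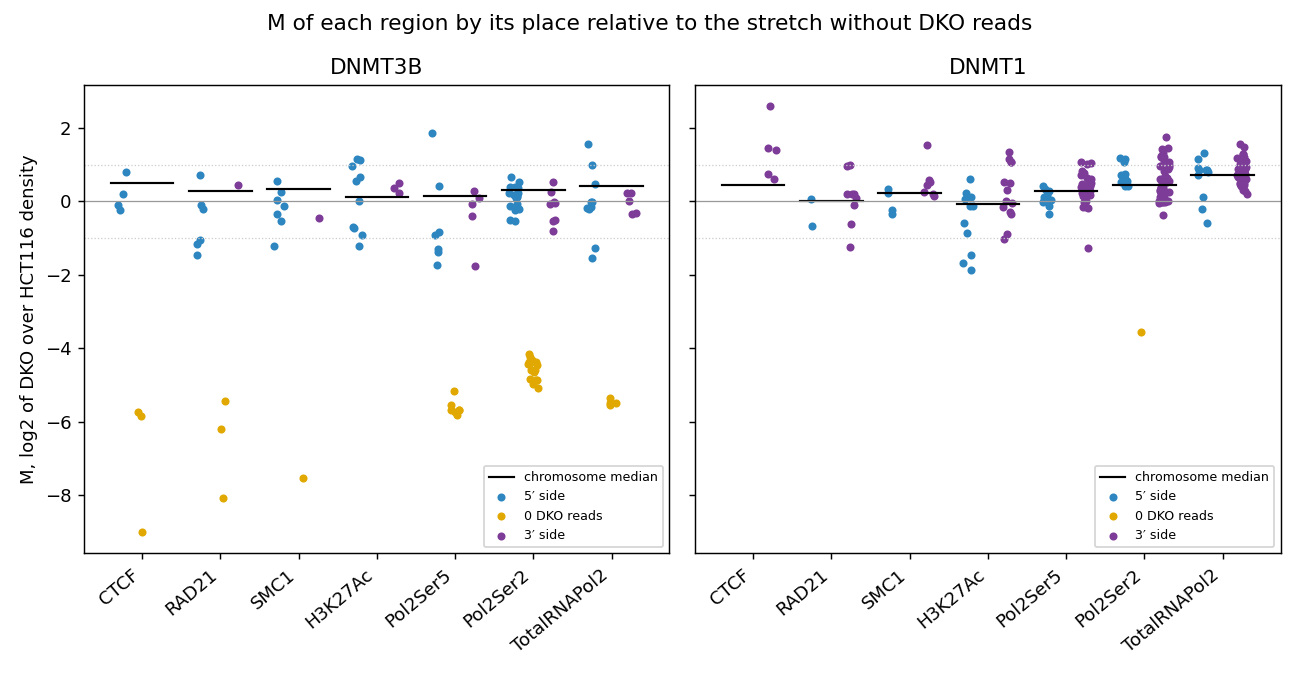
M of each region (log2 of DKO over HCT116 density) by target, with blue points on the 5' side of the DKO read gap of each gene, yellow points for regions with 0 DKO reads and purple points on its 3' side. Black lines are the chromosome medians and dotted lines mark 2-fold. The 34 yellow DNMT3B points lie at -4.16 or below and the 1 yellow DNMT1 point at -3.55.

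DNMT1 had DKO reads in 210 of its 211 regions, the exception being of Pol2Ser2. Of the 211 regions, 150 were called as peaks in DKO alone, 30 in HCT116 alone and 31 in both. How often regions of whole tables were called in 1 line alone is not given here. These calls, and those named below, are thus not read as particular to DNMT1. There were 38 regions at least 2-fold higher in DKO and 7 lower, and the 38 became 9 once the median of chromosome 19 was removed. Higher were 3 of 5 CTCF regions, 1 of 11 RAD21, 1 of 11 SMC1, 4 of 25 H3K27Ac, 3 of 42 Pol2Ser5, 12 of 65 Pol2Ser2 and 14 of 52 TotalRNAPol2 regions. The table shares in the same order were 20.1%, 13.7%, 9.36%, 11.0%, 14.9%, 18.6% and 20.7%. The lower regions were 1 of RAD21, 4 of H3K27Ac, 1 of Pol2Ser5 and 1 of Pol2Ser2, against 8.7%, 10.4%, 21.0% and 10.9% of those tables.

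The single DNMT1 region without DKO reads was Pol2Ser2 at chr19:10288385-10288662, 17.3 kb downstream of the gene start. It had 0 DKO and 31 HCT116 reads, and its density in HCT116 was 9.66. Equal density would have given 18 DKO reads, and the upper bound of M was -1.53. Of 134818 Pol2Ser2 regions with at least 31 HCT116 reads, 206, or 0.153%, had 0 DKO reads. The share was similar, 0.131%, from the 45 reads used for Pol2Ser2 at DNMT3B. What differed was the extent, 1 region of 1 target at DNMT1 against 34 regions of 6 targets at DNMT3B. The Pol2Ser5 region beside it, at chr19:10287281-10287559, had 16 DKO and 24 HCT116 reads (M -1.26, -2.30 to -0.32), and its window shared 1030 bp with the empty one. The Pol2Ser2 region at chr19:10286617-10287050 had 23 DKO and 25 HCT116 reads, with 319 bp shared. On the side of the gene start no table had a region for 4763 bp, up to a Pol2Ser2 region at chr19:10293425-10293664 with 23 DKO and 26 HCT116 reads. A gap in DKO reads at DNMT1 could thus be seen only over this one window and its limits cannot be placed.

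**Figure D5:**
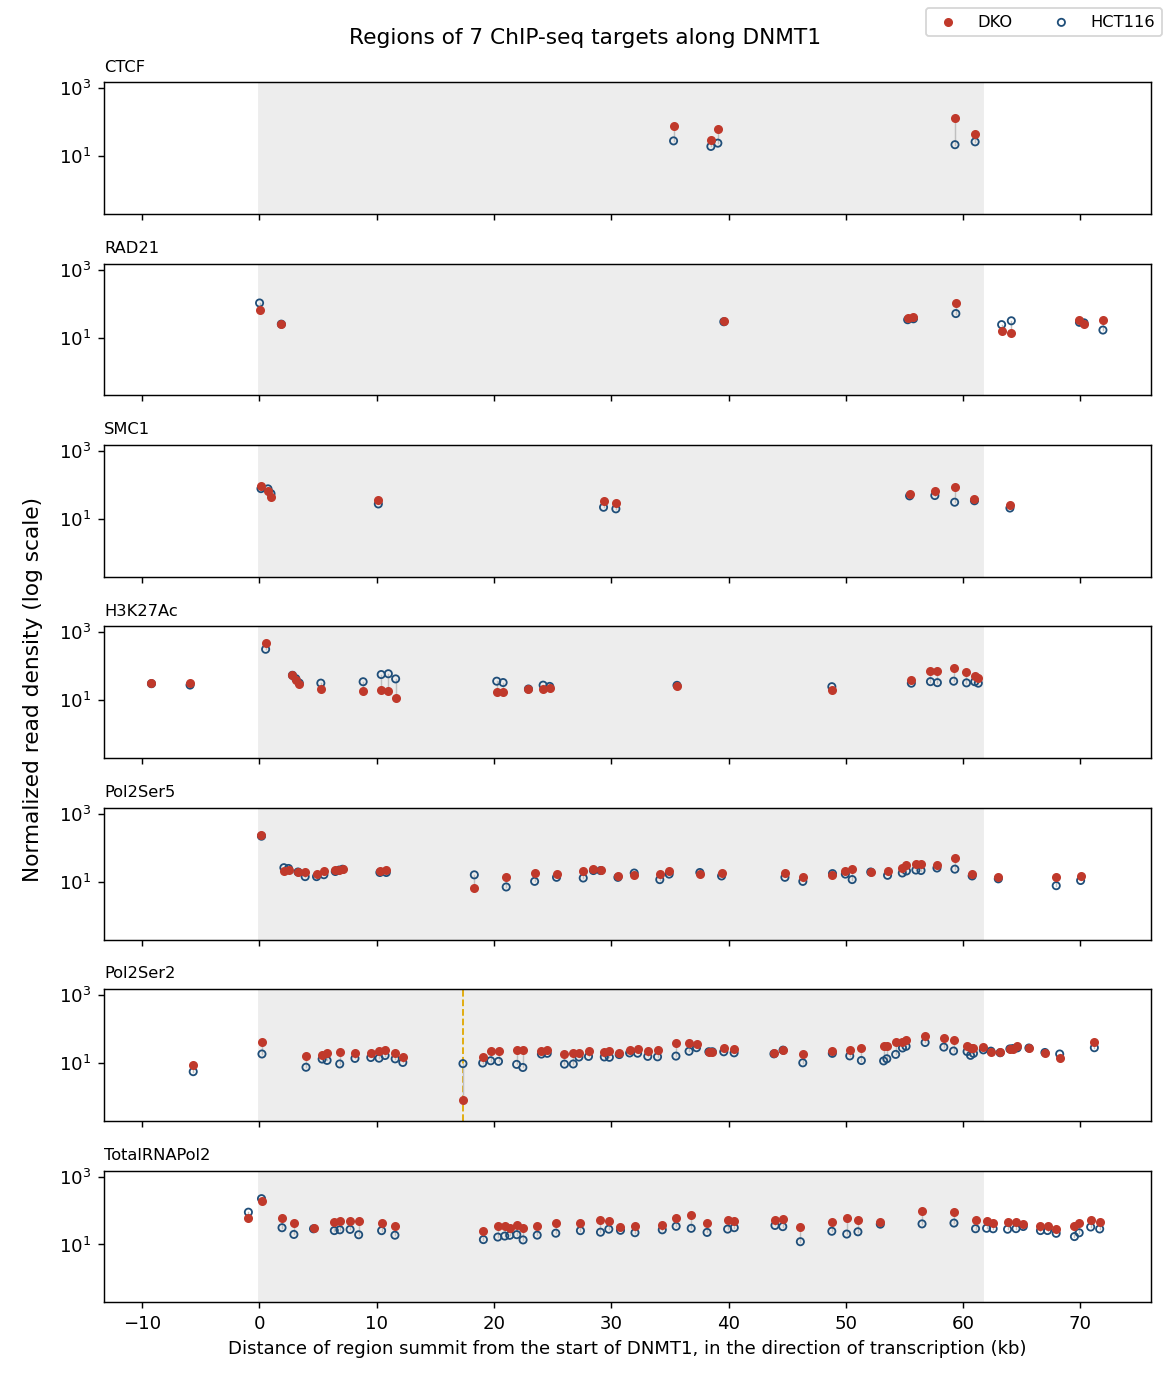
Normalized read density (log scale) of each DNMT1 region against the distance of its summit from the gene start in kb along transcription, with filled red points for DKO and open blue points for HCT116. Grey shading is the gene, and the dashed line marks the Pol2Ser2 region 17.3 kb from the start with 0 DKO and 31 HCT116 reads.

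At the start of DNMT1, H3K27Ac (chr19:10303422-10307095) had 951 DKO and 648 HCT116 reads, with densities of 484 in DKO and 319 in HCT116 and an M of 0.60 (0.46 to 0.75). Pol2Ser5 (chr19:10304591-10306193) had 622 DKO and 324 HCT116 reads, with densities of 231 in DKO and 219 in HCT116 and an M of 0.07 (-0.12 to 0.28). TotalRNAPol2 (chr19:10304487-10306155) had 565 DKO and 306 HCT116 reads, with an M of -0.20 (-0.40 to 0.01). With the scaling of the authors, the DKO and HCT116 densities of Pol2Ser5 and of TotalRNAPol2 at the start were within counting error of each other. The sign for TotalRNAPol2 depended on the scaling, since constant centring gave 0.29. RAD21 (chr19:10304724-10305964) was lower in DKO, with 72 DKO and 94 HCT116 reads (M -0.66, -1.13 to -0.21), and SMC1 (chr19:10305252-10305936) had 101 DKO and 69 HCT116 reads (M 0.22, -0.23 to 0.69). Pol2Ser2 (chr19:10304739-10305749) had 74 DKO and 41 HCT116 reads (M 1.19, 0.64 to 1.79).

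All 5 CTCF regions of DNMT1 were called in DKO alone and lay in its 3' part, 35.3 to 61.0 kb from the start. The site of highest M, at chr19:10246046-10246906 and 59.3 kb from the start, had 137 DKO and 20 HCT116 CTCF reads, with densities of 132 in DKO and 22.0 in HCT116 and an M of 2.59 (1.97 to 3.40). RAD21 (chr19:10246154-10246878) had 113 DKO and 45 HCT116 reads there (M 1.00, 0.51 to 1.55), and SMC1 (chr19:10246144-10246664) had 99 in DKO and 27 in HCT116 (M 1.52, 0.93 to 2.23). H3K27Ac had 171 DKO and 78 HCT116 reads (M 1.33, 0.95 to 1.75). Pol2Ser5 had 126 in DKO and 35 in HCT116 (M 1.05), Pol2Ser2 had 85 in DKO and 49 in HCT116 (M 1.06), and TotalRNAPol2 had 219 in DKO and 70 in HCT116 (M 1.10). At this place every one of the 7 targets passed the 2-fold limit upwards with the scaling of the authors, RAD21 by a small margin, and it held the highest DKO density of CTCF and of RAD21 at DNMT1. With the median of chromosome 19 removed, RAD21 (0.998), Pol2Ser5 (0.76), Pol2Ser2 (0.62) and TotalRNAPol2 (0.38) no longer passed. When centred on all regions of the table, RAD21 (0.86), Pol2Ser2 (0.89) and TotalRNAPol2 (0.83) did not pass.

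The other CTCF regions of DNMT1 were weaker. Those at chr19:10270052-10270917, with 81 DKO and 26 HCT116 reads (M 1.46, 0.84 to 2.19), and at chr19:10266308-10266806, with 67 DKO and 22 HCT116 reads (M 1.40, 0.73 to 2.21), were also at least 2-fold higher in DKO. Those at chr19:10244632-10245035 (M 0.76, 0.05 to 1.56) and chr19:10267163-10267327 (M 0.60, -0.26 to 1.58) were not. A RAD21 region (chr19:10266149-10266314) met the CTCF region near 10266308 at its edge only, with 36 DKO and 24 HCT116 reads (M 0.10, -0.67 to 0.93). No cohesin region of either line overlapped the CTCF region near 10270052. CTCF was thus higher in DKO also where cohesin had no region or only one at the edge. How cohesin differed over these CTCF sites themselves is not shown.

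H3K27Ac within DNMT1 was lower in DKO about 10 kb into the gene and higher towards its end. Adjoining regions 10.4 to 11.6 kb from the start had 37 DKO and 125 HCT116 reads at chr19:10295088-10295734 (M -1.47, -2.07 to -0.96), 34 DKO and 132 HCT116 reads at chr19:10294626-10294968 (M -1.67, -2.29 to -1.15), and 20 DKO and 94 HCT116 reads at chr19:10294022-10294470 (M -1.88, -2.71 to -1.23). All 3 were called in HCT116 alone. Polymerase over the same place had M above 0, with 32 DKO and 32 HCT116 reads for Pol2Ser2 at chr19:10294101-10294549 (M 0.61) and 70 DKO and 35 HCT116 reads for TotalRNAPol2 at chr19:10294072-10294348 (M 0.86). The Pol2Ser2 reads were equal, so its M came from the scaling. Both values were near the medians of chromosome 19, 0.44 for Pol2Ser2 and 0.72 for TotalRNAPol2. The 4 H3K27Ac regions at least 2-fold higher in DKO, with M from 1.06 to 1.33, all lay 57.2 to 60.3 kb from the start, around the CTCF site of highest M.

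Polymerase along DNMT1 and its flanks was higher in DKO by about as much as over chromosome 19 as a whole. The median M was 0.56 over 65 Pol2Ser2 regions, 0.82 over 52 TotalRNAPol2 regions and 0.29 over 42 Pol2Ser5 regions, where all regions of chromosome 19 had 0.44, 0.72 and 0.29. Over the gene body alone the medians were 0.60, 0.88 and 0.28. With 1 constant in place of the authors' line the Pol2Ser2 median was 0.39 and the TotalRNAPol2 median 0.46. M was above 0 in 59 of 65 Pol2Ser2 and 50 of 52 TotalRNAPol2 regions. The region of highest M was chr19:10282872-10283453 for Pol2Ser2, with 38 DKO and 18 HCT116 reads (M 1.74, 0.93 to 2.68), and chr19:10255047-10256060 for TotalRNAPol2, with 129 DKO and 36 HCT116 reads (M 1.55, 1.03 to 2.15). For the other targets the DNMT1 median was 1.40 (CTCF), 0.10 (RAD21), 0.27 (SMC1) and -0.04 (H3K27Ac), and chromosome 19 as a whole had 0.43, 0.00, 0.22 and -0.06. CTCF, with 5 regions, was the target whose median stood farthest from that of the chromosome.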

How the data were processed

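Of the 16 samples, the 14 ChIP libraries (DKO and HCT116, 7 targets, 1 library per line and target) were used, and both input libraries were not analysed here. The submitters' processing notes name build hg19 and BWA, with MACS2 for every target but TotalRNAPol2, with tool versions not given in the sources used here. Per the file headers, each deposited table lists the regions called in either line with M and A as log2 values, a p-value (not used here) and a normalized signal density per line. From the deposited values, A is the mean log2 read density with 1 read added, and M is the log2 ratio minus a line in A.

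Whole reads were recovered from M and A by searching for that line, and 100% of values came within 0.05 of a whole number in all 7 tables. Windows of 1 kb (CTCF, RAD21, SMC1) or 2 kb centred on the summit gave the densities: adjoining regions with near summits differed by a median of 0.11 to 0.182 (log2 density), those with far summits by 0.387 to 1.08. Recovery was also run on data simulated with the same line, offset and window sizes, which cannot test those choices. Python 3.11.15, numpy 2.4.6, pandas 2.3.3, scipy 1.17.1 and matplotlib 3.10.9 were used. Regions named per gene and table were those of highest density in each line, of lowest and highest M with at least 10 reads in a library, over the gene start, with 0 reads in a library, and beside the interval; others were chosen after their values were seen. The members and this rule were chosen with earlier results of these data known. Promoter sequences came from RefSeq, and both genes matched. Alternatives changed the scaling, flank, minimum reads, density, fold limit, tables and window edges.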

Additional observations from a re-analysis of the deposited data

How the results depend on the processing

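Of 126 alternative values for 22 results, 100 stayed within the interval of the reported median or within 1.5 times the reported count. The other 26 did not. The interval of a median is not the counting interval of M. It ran between the M of member regions, and over the fewest regions it was their full range. It takes regions as independent, although neighbouring windows share reads and each line had 1 library per target. The counts of 100 and 26 thus describe the size of shifts and are no test of robustness. The 34 DNMT3B regions without DKO reads and the place of their run in the genome moved under none of their alternatives. All 34 lay in the gene body with at least 22 HCT116 reads, so the limits of gene body and of 10 reads could not change that count. The limit of 10 reads in either library removed no region of either gene, so its 18 values could not move. The interval was 11929 bp long from CTCF, RAD21 and SMC1 alone. Removing the chromosome median gave DNMT3B medians outside the interval of -0.45 (CTCF), -0.21 (Pol2Ser2) and -0.44 (TotalRNAPol2), and DNMT1 medians of -0.0053 (Pol2Ser5), 0.12 (Pol2Ser2) and 0.10 (TotalRNAPol2). Constant centring gave -0.13 (Pol2Ser2) and -0.47 (TotalRNAPol2) at DNMT3B, and 0.39 and 0.46 at DNMT1. Centring on all regions gave 0.39 and 0.55 at DNMT1. The DNMT1 H3K27Ac median was 1.06 among the regions as dense as the table median or denser. The intervals of medians over few regions are wide, and some values inside them were far off. At DNMT3B these were 0.51 (gene body) and -0.21 (centred on all regions) for CTCF, -1.06 (dense regions) for RAD21, -0.57 (chromosome median removed) for SMC1, -0.73 (gene body) for H3K27Ac and -0.08 (centred on all regions) for Pol2Ser2. At DNMT1 they were 2.02 (dense regions) and 0.96 (chromosome median removed) for CTCF, -0.04 (centred on all regions) for RAD21, and 0.01 (centred on all regions) and 0.02 (chromosome median removed) for H3K27Ac. Regions at least 2-fold higher at DNMT3B (4) became 0 in the gene body, 1 at that density, 10 at 1.5-fold and 0 at 4-fold. The 45 lower at DNMT3B became 7 at that density. At DNMT1 the 38 higher became 24 centred on all regions, 9 with the chromosome median removed, 92 at 1.5-fold and 1 at 4-fold, and the 7 lower became 0 at that density, 12 at 1.5-fold and 1 at 4-fold. No paired analysis was possible because each line had 1 library per target. For these shifts the cause was not tested.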
